A study of Mus musculus with 10 samples.

Results

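The 10 genes of the DREAM complex examined here were Lin9, Lin37, Lin52, Lin54, Rbbp4, Rbl1, Rbl2, E2f4, Tfdp1 and Mybl2, out of 19938 genes measured in the mouse hippocampus. They were chosen by name, as genes of a complex that the kinase DYRK1A acts on. Mybl2 encodes a later partner of some of its subunits, outside the repressor itself, and is counted among the DREAM genes here. All 10 had a transcript cluster, the set of array probes that reports 1 transcript. Where a gene had more than 1 transcript cluster, the one with the highest mean over the 10 arrays was taken. Both hippocampi of each animal were pooled for total RNA. The mice were males 16 weeks old, 5 of them Tg(Dyrk1a) and 5 their wild-type littermates, with 1 array for each mouse. Tg(Dyrk1a) mice carry an additional copy of Dyrk1a on a bacterial artificial chromosome, from a single transgenic line, and the wild-type littermates carry no transgene. The labels give the genetic background of both groups as C57BL/6N, whereas the study's methods name C57BL/6J.

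DREAM is a repressor of cell-cycle genes in cells that are not dividing. A core called MuvB, made of LIN9, LIN37, LIN52, LIN54 and RBBP4, joins a pocket protein, p130 or p107, and the DNA-binding pair E2F4 and DP1. DYRK1A phosphorylates LIN52, which favours assembly of the complex. When cells enter the cycle the pocket protein leaves, and the same core joins B-MYB and later FOXM1 to activate genes of the G2 phase and mitosis. Most cells of the adult hippocampus no longer divide, and the dividing progenitors lie in the subgranular zone of the dentate gyrus. The arrays measured transcripts, so neither the phosphorylation of LIN52 nor the assembly of the complex was measured.

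E2F4 with DP1 binds E2F sites, which mark genes of the G1/S transition, and LIN54 binds the cell cycle genes homology region (CHR), which marks genes of G2 and mitosis. Both words were searched on both strands of RefSeq promoter windows of 300 bases (GRCm38.p6, 250 before to 50 after a transcription start). For E2F the words were TTTCCCGC, TTTGGCGC, TTTCGCGC and TTTGCCGC, for CHR they were TTTGAA and TTCGAA, and a match of one overlapped a match of the other in 0 windows. The stretches printed here, from 120 bases before to 50 after the start, show an E2F word in 2 genes of the complex and a CHR word in 2 G2/M genes whose values follow, with the word in capitals. Rbl1 lies at chr2:157204485-157204654 on the minus strand, Lin52 at chr12:84451388-84451557 on the plus strand, Ccnb2 at chr9:70421505-70421674 and Aurka at chr2:172370521-172370690, both on the minus strand.
Rbl1: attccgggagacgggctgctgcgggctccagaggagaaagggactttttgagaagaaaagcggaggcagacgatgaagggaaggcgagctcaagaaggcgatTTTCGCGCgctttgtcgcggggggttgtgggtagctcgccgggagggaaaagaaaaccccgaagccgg
Lin52: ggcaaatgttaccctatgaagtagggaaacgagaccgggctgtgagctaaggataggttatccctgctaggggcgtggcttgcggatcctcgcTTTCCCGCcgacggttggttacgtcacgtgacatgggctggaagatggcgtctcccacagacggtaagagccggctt
Ccnb2: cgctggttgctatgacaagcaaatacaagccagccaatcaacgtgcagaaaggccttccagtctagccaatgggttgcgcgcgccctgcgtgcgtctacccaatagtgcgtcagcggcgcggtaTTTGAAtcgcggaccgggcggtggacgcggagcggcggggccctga
Aurka: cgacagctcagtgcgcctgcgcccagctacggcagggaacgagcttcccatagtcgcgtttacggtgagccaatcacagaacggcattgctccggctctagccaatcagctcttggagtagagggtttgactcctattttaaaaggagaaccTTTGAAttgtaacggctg

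Of the 10 genes, 8 had a promoter window. The E2F word stood in 3 of these 8 (37.5%), which were Lin52, Rbl1 and Tfdp1, and in 704 of all 27025 genes with a window (2.605%). The CHR word stood in another 3 (37.5%), which were Lin37, Lin54 and Rbl2, and in 5854 of all genes (21.7%). Among the G1/S genes described further on, 16 of 36 (44.4%) held the E2F word and 8 (22.2%) the CHR word. Among the G2/M genes, 37 of 47 (78.7%) held the CHR word and 1 (2.13%), Cdk1, the E2F word. A match describes the letters of the window and is no evidence of binding.

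Slc17a7 and Prox1, named after their values were seen, describe the samples and do not test the hippocampal label. Slc17a7, the vesicular glutamate transporter of pyramidal and granule cells, had means of 12.20 ± 0.08 (wild type) and 12.19 ± 0.02 (Tg(Dyrk1a)), and Prox1, a granule cell factor, at 9.91 ± 0.14 and 10.03 ± 0.13. Transthyretin (Ttr), made by the choroid plexus, spanned 7.97 to 13.24 over the arrays. A choroid plexus score, the mean deviation of 10 marker genes from their means, exceeded 0.5 in 3 arrays, wild-type replicate 5 and replicates 2 and 4 of Tg(Dyrk1a).

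Dyrk1a, the transgene, was higher in every Tg(Dyrk1a) mouse than in any wild-type mouse. In replicates 1 to 5, the order used for every gene, its log2 value after robust multi-array average (RMA) processing was 11.28, 11.15, 11.14, 11.19 and 11.15 in wild-type mice. The corresponding values in Tg(Dyrk1a) mice were 11.65, 11.62, 11.67, 11.65 and 11.68. Its log2 fold change was 0.47 ± 0.03 (limma standard error), or 1.38-fold (95% interval 1.31 to 1.46), with a limma adjusted p of 0.000138 (Benjamini-Hochberg) and an exact permutation p of 0.00794, the smallest that 5 against 5 allows. With marker scores of choroid plexus, meninges and thalamus as covariates the difference was 0.44 with an adjusted p of 0.435. A second transcript cluster of Dyrk1a differed by 0.16 ± 0.05, or 1.11-fold (95% interval 1.04 to 1.20), and did not pass (limma adjusted p = 0.947). Its groups did not overlap either (exact permutation p = 0.00794). The mean of both transcript clusters differed by 0.31 (adjusted p = 0.0169). Dyrk1b, its closest relative, had a mean of 9.72 ± 0.07 (SD, n = 5) in the wild type and of 9.53 ± 0.08 with the transgene. That difference of -0.19 ± 0.05 did not pass limma (adjusted p = 0.947), although the groups did not overlap (exact permutation p = 0.00794).

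None of the 10 DREAM genes passed the adjusted p threshold of 0.05 in limma, which 0.00854% of the 23410 annotated transcript clusters did. Rbbp4 alone had an unadjusted limma p under 0.05, as 4.93% of transcript clusters did (2.99% higher). The groups overlapped for every one of the 10 genes, whereas 0.807% of transcript clusters had groups that did not. FCROS, the rank-based method of the study, called 0 of the 10 against 4.83% of transcript clusters. Of the 10 genes, 6 had a higher and 4 a lower mean in Tg(Dyrk1a) mice, and their median log2 fold change was 0.015, beside 51.7% higher and a median of 0.0020 over all genes. After quantile normalization the split was 4 higher and 6 lower. In 9 of 10 genes the 95% interval of the difference lay within 0.2 log2 units of 0, a fold of 1.15, and Mybl2 was the exception. Lin9 and Rbl1, among those 9, were dim, and RMA understates fold changes at low signal. In bulk tissue such as this, fewer cells of a type and less RNA per cell cannot be told apart.

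**Figure D1:**
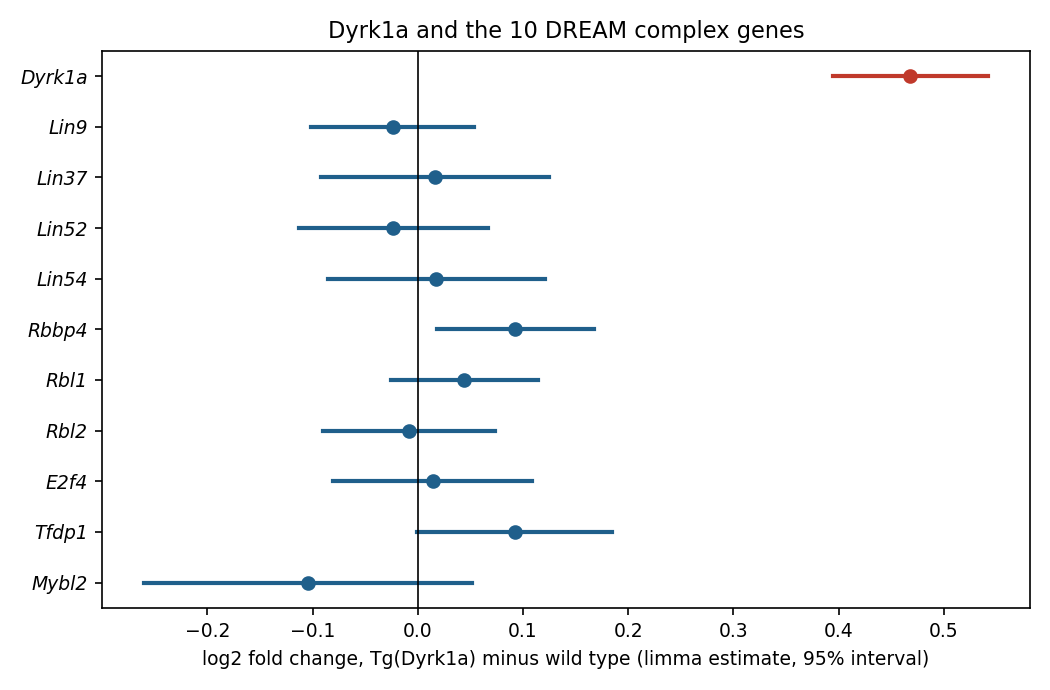
Log2 difference (Tg(Dyrk1a) minus wild type) of Dyrk1a and of each DREAM gene (points, limma estimates with 5 mice per group, lines, 95% intervals). The interval of Dyrk1a starts at 0.40, above the upper end of every DREAM gene's interval, the highest of which is 0.18 for Tfdp1.

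Within the MuvB core, Lin52 encodes the subunit that DYRK1A phosphorylates (gene at chromosome 12, 84451508 to 84531533). Its log2 values were 9.36, 9.31, 9.34, 9.31 and 9.31 in wild-type mice. In Tg(Dyrk1a) mice they were 9.22, 9.21, 9.31, 9.42 and 9.35. The Tg(Dyrk1a) values lay on both sides of the narrow wild-type range, with 2 mice below all wild-type mice and 1 above them. The means were 9.32 ± 0.03 and 9.30 ± 0.09 (SD, n = 5 each), a difference of -0.023 ± 0.041 with a 95% interval from -0.11 to 0.067 (limma adjusted p = 0.976, exact permutation p = 0.595). A second transcript cluster of Lin52 differed by -0.0064 ± 0.0429 (adjusted p = 0.994). Which transcript cluster lies at the position of the gene was not examined.

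Rbbp4 encodes a histone-binding WD-repeat protein that MuvB shares with several chromatin complexes (chromosome 4, 129307100 to 129335370). The wild-type values were 10.82, 10.80, 10.81, 10.75 and 10.78, and the Tg(Dyrk1a) values were 10.87, 10.80, 10.95, 10.89 and 10.92. In Tg(Dyrk1a) mice 4 of 5 values were above every wild-type value and replicate 2 lay inside the wild-type range. The wild-type mean was 10.79 ± 0.03 and the Tg(Dyrk1a) mean 10.89 ± 0.06, which gave a difference of 0.093 ± 0.034, or 1.07-fold (95% interval 1.01 to 1.12). The unadjusted limma p was 0.0186, the exact permutation p 0.0317 and the limma adjusted p 0.947, so this difference did not pass over all transcript clusters.

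LIN54 binds the CHR (Lin54, chromosome 5, 100442033 to 100500639). Wild-type mice had Lin54 values of 8.59, 8.58, 8.47, 8.63 and 8.56, and Tg(Dyrk1a) mice of 8.53, 8.73, 8.52, 8.51 and 8.63. The groups overlapped over most of their range, with Tg(Dyrk1a) replicate 2 the highest and wild-type replicate 3 the lowest. The difference of 0.017 ± 0.048 did not pass (limma adjusted p = 0.983, exact permutation p = 0.77), and it was -0.0041 after quantile normalization.

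LIN37 is needed for repression by DREAM (Lin37, chromosome 7, 30555441 to 30559721). Its values were 9.13, 9.08, 9.15, 9.08 and 9.11 in wild-type mice, and 9.28, 9.12, 8.99, 9.19 and 9.05 in Tg(Dyrk1a) mice. The wild-type SD was 0.03 and the Tg(Dyrk1a) SD 0.12, so the wild-type values fell inside the Tg(Dyrk1a) range. The difference was 0.017 ± 0.050 (limma adjusted p = 0.983, exact permutation p = 0.778), and it was -0.0010 without the 3 arrays high in choroid plexus.

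LIN9 is the scaffold of the core and gave a dim signal, below the 30th percentile of transcript clusters by mean (Lin9, chromosome 1, 180641150 to 180690687). Its values were 4.97, 5.11, 5.08, 5.03 and 5.03 in wild-type mice, and 5.01, 5.06, 4.95, 5.06 and 5.04 in Tg(Dyrk1a) mice. The groups covered nearly the same range, and the difference was -0.024 ± 0.036 (limma adjusted p = 0.973, exact permutation p = 0.5). RMA understates fold changes at such low signal.

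**Figure D2:**
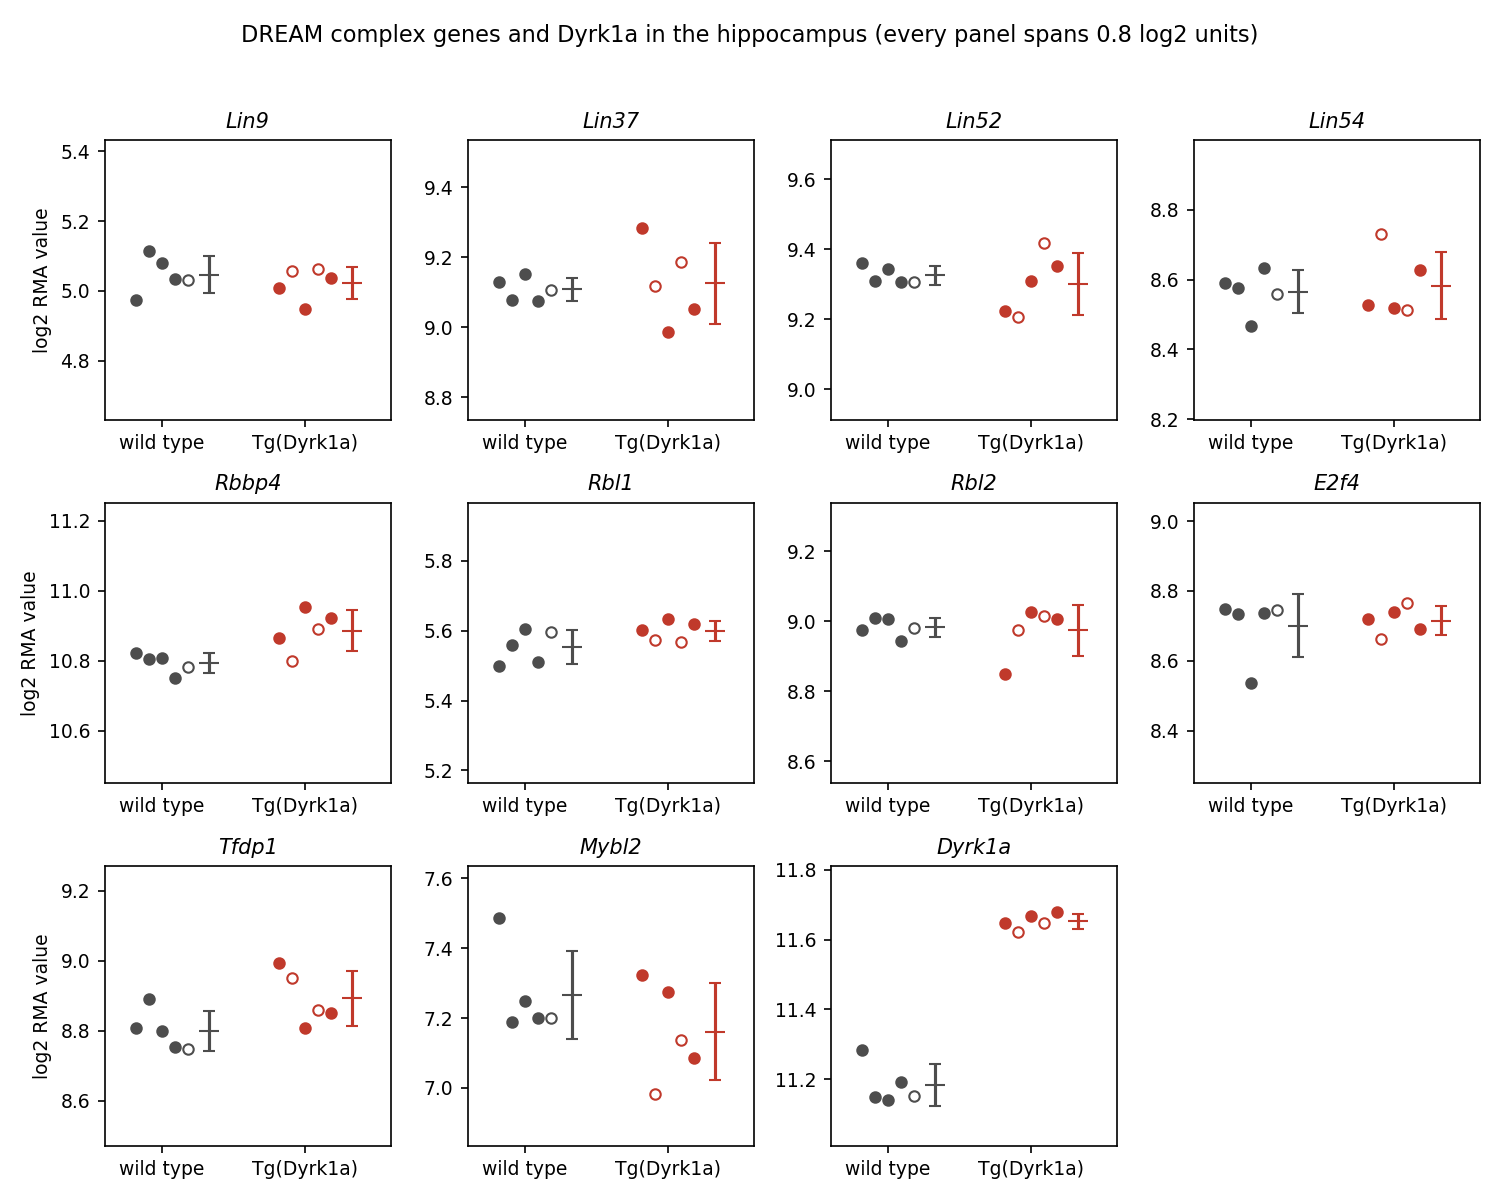
Log2 RMA value of each DREAM gene and of Dyrk1a in every mouse (points, grey wild type, red Tg(Dyrk1a), replicates 1 to 5 from left to right, open points the arrays high in choroid plexus), with mean ± SD (n = 5 per group) beside them. Every panel spans 0.8 log2 units with its own offset, and the groups overlap in each DREAM gene but not in Dyrk1a.

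The pocket proteins of DREAM are p130, encoded by Rbl2 and the main one in resting cells, and p107, encoded by Rbl1. Rbl2 (chromosome 8, 91070057 to 91123844) had values of 8.97, 9.01, 9.01, 8.94 and 8.98 in wild-type mice. In Tg(Dyrk1a) mice it had 8.85, 8.98, 9.03, 9.02 and 9.01. Replicate 1 of the Tg(Dyrk1a) mice was below every wild-type mouse and replicates 3 and 4 were above them. The difference was -0.0082 ± 0.0376 with a 95% interval from -0.090 to 0.073 (limma adjusted p = 0.989, exact permutation p = 0.897), and without that Tg(Dyrk1a) replicate 1 it was 0.023.

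Rbl1 (chromosome 2, 157145893 to 157204534) was dim, also below the 30th percentile of means. Its values were 5.50, 5.56, 5.60, 5.51 and 5.60 in wild-type mice and 5.60, 5.57, 5.63, 5.57 and 5.62 in Tg(Dyrk1a) mice. All 5 Tg(Dyrk1a) values were above the wild-type mean of 5.55 ± 0.05, but the groups overlapped. The difference of 0.044 ± 0.032 did not pass (limma adjusted p = 0.952, exact permutation p = 0.127).

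E2F4 brings DREAM to E2F sites, and DP1, encoded by Tfdp1, is its dimer partner. E2f4 (chromosome 8, 105297663 to 105305370) had values of 8.75, 8.73, 8.54, 8.74 and 8.75 in wild-type mice, and 8.72, 8.66, 8.74, 8.77 and 8.69 in Tg(Dyrk1a) mice. Wild-type replicate 3 stood below all the other mice. The difference was 0.014 ± 0.044 (limma adjusted p = 0.983, exact permutation p = 0.865), and without that array it was -0.027.

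Tfdp1 (gene at chromosome 8, 13338725 to 13378448) had values of 8.81, 8.89, 8.80, 8.75 and 8.75 in wild-type mice. In Tg(Dyrk1a) mice the values were 8.99, 8.95, 8.81, 8.86 and 8.85, with replicates 1 and 2 above every wild-type mouse. The difference was 0.092 ± 0.043, and all 5 Tg(Dyrk1a) values were above the wild-type mean of 8.80 ± 0.06. The unadjusted limma p was 0.0506, the exact permutation p 0.0714 and the limma adjusted p 0.947, so it did not pass. A second transcript cluster of Tfdp1 differed by 0.037 ± 0.054 (adjusted p = 0.973), with 4 of 5 Tg(Dyrk1a) values above its wild-type mean. It was not examined which Tfdp1 transcript cluster lies at the position of the gene.

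Mybl2 encodes B-MYB, which takes the place of the pocket protein in dividing cells (chromosome 2, 163054327 to 163084688). Wild-type values were 7.49, 7.19, 7.25, 7.20 and 7.20, and Tg(Dyrk1a) values were 7.32, 6.98, 7.27, 7.14 and 7.09. Wild-type replicate 1 was the highest of all mice and Tg(Dyrk1a) replicate 2 the lowest. The means were 7.27 ± 0.13 and 7.16 ± 0.14, and the difference of -0.10 ± 0.07 had the widest interval of the 10 genes, from -0.26 to 0.051 (limma adjusted p = 0.948, exact permutation p = 0.278). Without wild-type replicate 1 it was -0.049, without Tg(Dyrk1a) replicate 2 -0.060, and without the 3 choroid-rich arrays -0.054.

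Values of other cell types moved between arrays and groups. Without the 3 arrays high in choroid plexus the differences were 0.12 in Rbbp4, 0.074 in Rbl1 and 0.071 in Tfdp1, and the 10 genes had a median of -0.0057. The endothelial and mural score of wild-type mice ran from -0.18 to 0.022 and that of Tg(Dyrk1a) mice from 0.011 to 0.11, with 10 of 12 genes higher, and 9 of 10 meningeal and 10 of 10 dentate granule genes were also higher. Of 10 thalamus and habenula genes 9 were lower, with a median of -0.12, and their score ran from -0.12 to 0.47 in wild-type mice, the highest in replicate 5, and from -0.11 to -0.0071 with the transgene. With the 3 marker scores as covariates Rbbp4 differed by 0.11, Tfdp1 by 0.16, Rbl1 by 0.082, Lin37 by 0.15 and Mybl2 by -0.038. The part of the endothelial and dentate granule cell lists in the DREAM values was not tested.

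Relatives of the DREAM subunits were examined as a list of 13 genes, namely E2f1, E2f2, E2f3, E2f5, E2f6, E2f7, E2f8, Tfdp2, Rb1, Rbbp7, Myb, Mybl1 and Foxm1. None passed limma, 5 were higher and 8 lower, and the median log2 fold change was -0.0044, beside 0.0020 over all genes. Rbbp7, the closest relative of Rbbp4, had 10.11, 10.08, 10.01, 10.09 and 10.06 in wild-type mice, beside 10.09, 10.13, 10.15, 10.12 and 10.21 with the transgene. All but Tg(Dyrk1a) replicate 1 were above every wild-type mouse, and the difference was 0.072 ± 0.033 (unadjusted limma p = 0.0467, adjusted p = 0.947, exact permutation p = 0.0159). It was 0.047 for the mean of all Rbbp7 transcript clusters and 0.031 with marker covariates. Whether probes of Rbbp4 and Rbbp7 catch each other's transcript was not tested. Rb1, the retinoblastoma gene and the remaining pocket protein, differed by 0.065 ± 0.059, E2f1, an activating E2F, by -0.062 ± 0.047, and Foxm1, the later partner of MuvB, by 0.0014 ± 0.0417. Mybl1 had the lowest difference of the list, -0.087 ± 0.069.

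D-type cyclins with CDK4 or CDK6 phosphorylate the pocket proteins and so release DREAM, and CDK inhibitors hold them back. Of 12 genes of this group measured, 0 passed limma, 5 were higher and 7 lower, with a median of -0.019. Ccnd1 and Ccnd2 had an unadjusted p under 0.05, both lower, as 1.94% of transcript clusters were. Ccnd2 had 9.71, 9.94, 9.81, 10.02 and 9.95 in wild-type mice and 9.68, 9.71, 9.66, 9.78 and 9.64 in Tg(Dyrk1a) mice. All 5 Tg(Dyrk1a) values were below the wild-type mean, the groups overlapped, and the difference was -0.19 ± 0.05 (limma adjusted p = 0.947, exact permutation p = 0.0159).

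Ccnd1 had 9.32, 9.43, 9.31, 9.54 and 9.56 in wild-type mice and 9.30, 9.44, 9.22, 9.14 and 9.23 in Tg(Dyrk1a) mice. The exception was Tg(Dyrk1a) replicate 2, which lay above the wild-type mean of 9.43 ± 0.12. The difference was -0.16 ± 0.06 (limma adjusted p = 0.947, exact permutation p = 0.0635). FCROS placed Ccnd1 and Ccnd2 in its lower tail, with 2.11% of transcript clusters. Ccnd3, the third D cyclin, differed by 0.060 ± 0.049, Cdk4 by -0.025 ± 0.029, Cdk6 by 0.056 ± 0.042, Cdk2 by -0.032 ± 0.040 and Cdkn1b, the gene of the inhibitor p27, by -0.063 ± 0.045. Among the INK4 inhibitors and p57, the differences ran from -0.024 in Cdkn2a to 0.061 in Cdkn2c, with Cdkn2b at -0.014, Cdkn2d at 0.0072 and Cdkn1c at 0.034.

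**Figure D3:**
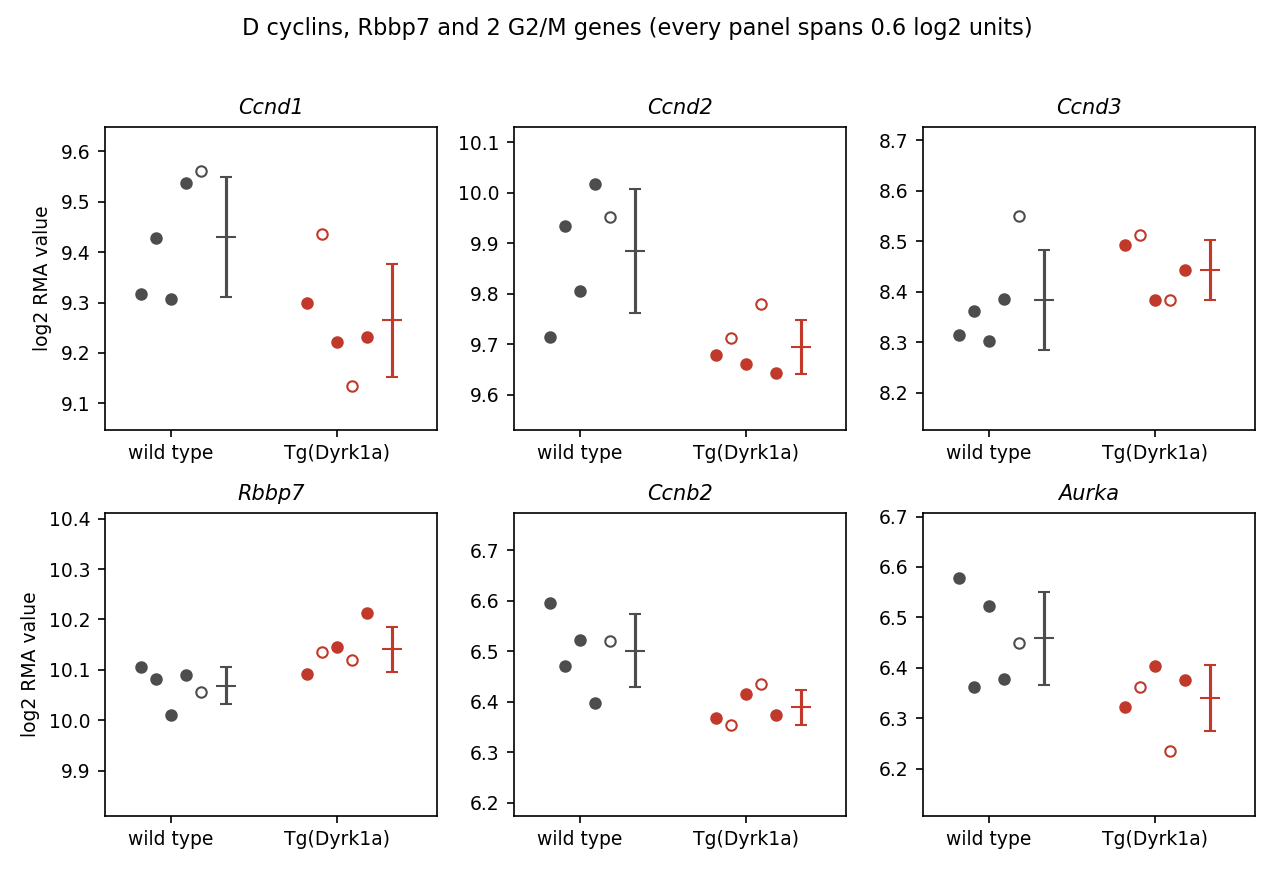
Log2 RMA value of the 3 D cyclins, Rbbp7, Ccnb2 and Aurka in every mouse (points, grey wild type, red Tg(Dyrk1a), open points the arrays high in choroid plexus), with mean ± SD (n = 5 per group). Every panel spans 0.6 log2 units, and the groups overlap in all 6 genes.

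Targets of DREAM were listed from textbook knowledge, as G1/S genes, mostly for DNA replication, and G2/M genes, mostly for mitosis. Whether DREAM binds or represses each of them in this tissue was not examined. Of 44 G1/S genes measured, 0 passed limma, 19 were higher and 25 lower, and the median log2 fold change was -0.0077. At an unadjusted p under 0.05 there were 3 of 44 genes (6.82%), beside 4.93% of all transcript clusters. Rrm2, a subunit of ribonucleotide reductase, differed by -0.15 ± 0.05 (limma adjusted p = 0.947, exact permutation p = 0.0556), and by -0.079 without the 3 arrays high in choroid plexus. The replicative helicase genes went opposite ways, with Mcm6 at 0.096 ± 0.042 (exact permutation p = 0.0556) and Mcm7 at -0.13 ± 0.06 (exact permutation p = 0.0952), or 0.15 and -0.22 with marker covariates. Mcm2, of the same helicase, differed by -0.034 ± 0.041 and Pcna, the sliding clamp of replication, by 0.045 ± 0.050. Where the probes of the transcript cluster shown for Pcna align was not examined.

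Of 56 G2/M genes measured, 0 passed limma, 14 were higher and 42 lower (75%), and the median was -0.017. Of the 56 genes, 19 (33.9%) were above the 30th percentile of means, beside 70.8% of all genes. Of all genes below that percentile 61.8% were lower in Tg(Dyrk1a) mice, with a median of -0.012, and of those above it 42.8% were lower, with a median of 0.0093. In the G2/M list 28 of 37 dim genes (75.7%) and 14 of 19 brighter genes (73.7%) were lower. The count of lower genes was 35 (62.5%) after quantile normalization, beside 50.5% of all genes in that setting. It was 34 (60.7%) without the 3 arrays high in choroid plexus, beside 47.7% of all genes. With the marker scores as covariates it was 30 (53.6%), beside 47.7% of all genes. These genes share the same mice and libraries, so the counts are descriptions.

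Unadjusted limma p-values were under 0.05 for 3 of 56 G2/M genes (5.36%), all lower, beside 4.93% of all transcript clusters (1.94% lower). Ccnb2 encodes a mitotic cyclin and had 6.60, 6.47, 6.52, 6.40 and 6.52 in wild-type mice and 6.37, 6.35, 6.42, 6.43 and 6.37 in Tg(Dyrk1a) mice. Wild-type replicate 4 alone overlapped the Tg(Dyrk1a) values, and the difference was -0.11 ± 0.04 (limma adjusted p = 0.947, exact permutation p = 0.0238), or -0.070 with marker covariates. Aurka, a mitotic kinase gene, differed by -0.12 ± 0.05 (adjusted p = 0.947, exact permutation p = 0.0476), with 5 of 5 Tg(Dyrk1a) mice below the wild-type mean, and by -0.076 with array weights. Ect2, a cytokinesis gene below the 30th percentile of means, had groups that did not overlap (5.44 ± 0.08 against 5.34 ± 0.04), as 0.807% of transcript clusters had. It differed by -0.10 ± 0.04 (adjusted p = 0.947, exact permutation p = 0.00794), and by -0.069 without wild-type replicate 1. The proliferation genes Mki67, Top2a and Cdk1 differed by -0.019 ± 0.045, -0.012 ± 0.038 and -0.031 ± 0.038, all of them dim.

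**Figure D4:**
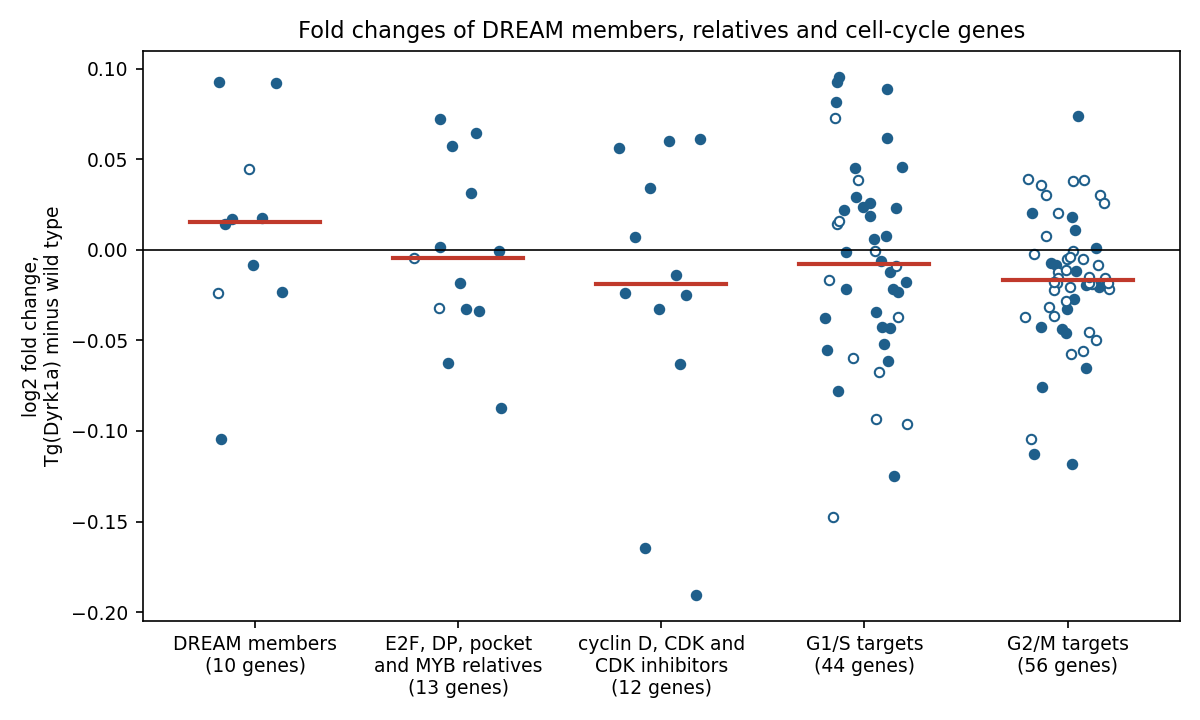
Log2 difference (Tg(Dyrk1a) minus wild type) of every measured gene in the DREAM complex and in the lists of relatives, cyclin D and CDK genes, G1/S targets and G2/M targets (1 point per gene, open points below the 30th percentile of means), with the median of each list as a red bar. The medians lie between -0.019 and 0.015, and no gene shown passed the limma threshold.

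The promoter words were also set against the values of all measured genes. Of 543 measured genes with the E2F word, 47.2% were lower in Tg(Dyrk1a) mice and the median log2 fold change was 0.0038. Of 2974 genes with the CHR word, 50.5% were lower and the median was -0.00050. Over all 15614 measured genes with a window, 47.4% were lower and the median was 0.0029.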

How the data were processed

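RNA of 10 mice (5 Tg(Dyrk1a), 5 wild type) was made into biotinylated cDNA and measured on Affymetrix whole-transcript gene arrays. The authors deposited log2 values after RMA, which corrects background, normalizes and reduces a cluster's probes to 1 value. RMA, limma and mm10 are named in the submitters' processing notes. The set of arrays normalized jointly is not given in the sources used here. Array medians were 6.57 to 6.66, arrays correlated at r = 0.994 to 0.998, and the closest differed by a median of 0.0577. The number of arrays limits the precision.

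Of 35556 rows, 23410 had a gene in the platform annotation (21789 with 1 symbol, 1621 with several). Positions are those of the genes in RefSeq, GRCm38.p6, looked up by symbol. Where the probes of a transcript cluster align was not examined. The comparison used lmFit and eBayes of limma 3.58.1 (R 4.3.3) without covariates, adjusted over the 23410 transcript clusters, and with a two-sided exact permutation test over 252 arrangements. FCROS was rewritten from its description (25% of ranks trimmed at each end, tails of 0.025), so details may differ. Scripts were tested on simulated data.

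Members and lists were chosen with earlier results of these data known. Of 253 list genes 244 were measured, and the others, Cdkn1a and Ccnb1 among them, were not analysed here. All members, relatives and cyclin D or CDK genes were eligible to be named, and of each target list the 3 with the smallest p and a few standard proliferation genes. Slc17a7 and Prox1 were named after their values were seen. The alternatives comprised median centring, quantile normalization, array weights, dropping the lowest 30% by mean, robust eBayes with a variance trend, all rows, a replicate block, gene means, marker covariates, FCROS, unadjusted p, and leaving out arrays.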

Additional observations from a re-analysis of the deposited data

Results flagged for a closer look

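In 4 of 110 groups of 5 arrays examined, 1 array lay far from the others by Dixon's ratio. This is the gap to the nearest array over the whole range, with a critical value of 0.71. The groups were each named gene but Slc17a7 and Prox1, in each genotype. The scores of the DREAM genes and of the relatives, cyclin D, G1/S and G2/M lists were also examined, but no marker score was. Chance gives about 1 in 20 groups. E2f4 was 8.54 in wild-type replicate 3 and 8.73 to 8.75 in the other wild-type mice (ratio 0.935). Mybl2 was 7.49 in wild-type replicate 1 and 7.19 to 7.25 in the others (ratio 0.798). Ect2 was 5.59 in the same mouse and 5.40 to 5.42 in the others (ratio 0.886). E2f6, a repressive E2F, was 8.10 in wild-type replicate 4 and 8.04 to 8.05 in the others (ratio 0.752).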

How the results depend on the processing

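No DREAM gene passed the limma threshold under any alternative, and the smallest adjusted p among them was 0.655, with array weights. At unadjusted p there was 1. Rbbp4, Rbl1, Tfdp1 and Mybl2 kept their direction in every alternative run. The others did not. Lin9 was 0.0084 with marker covariates. Lin37 was -0.015 with array weights and -0.0010 with the 3 choroid-rich arrays left out, and 0.15 with covariates. Lin54 was -0.0041 after quantile normalization, -0.010 without those arrays and -0.079 with covariates. Rbl2 was 0.0095 with array weights and E2f4 -0.0072 after quantile normalization. Leaving out each array in turn gave -0.042 to -0.0053 for Lin9, -0.023 to 0.052 for Lin37, -0.052 to 0.00026 for Lin52, -0.020 to 0.035 for Lin54, -0.022 to 0.023 for Rbl2 and -0.027 to 0.028 for E2f4.

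The median of the 10 genes was -0.0057 after quantile normalization, -0.0057 with those arrays left out, and -0.0045 to 0.023 leaving out each array, the lowest without wild-type replicate 3. With covariates the median was -0.025 for the relatives and -0.034 for G1/S genes, and after quantile normalization it was -0.0035 for G2/M genes. Leaving out each array gave -0.023 to 0.0096 for the relatives, -0.025 to -0.0031 for the cyclin D group, -0.017 to 0.0066 for G1/S and -0.026 to -0.0098 for G2/M genes. Dyrk1a kept a log2 fold change of 0.46 to 0.49 leaving out each array (adjusted p 5.62e-05 to 0.00131), and with covariates it was 0.44 (adjusted p 0.435). The mean of its transcript clusters gave 0.31 (adjusted p 0.0169).

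Over all transcript clusters 2 passed limma. The number was 1 when all rows were tested, with a variance trend or with those arrays left out, 0 with covariates, 5 with array weights and 1 to 2 leaving out each array. FCROS called 1131 and an unadjusted p under 0.05 called 1154. With the replicate number as a block 1 passed, and no other call here changed. The values gave no sign that the numbers pair the mice. Residuals of same-numbered mice correlated at -0.285 to 0.276, and 2 of 10 arrays correlated best with their own number. A weak pairing could be missed in this way. The cause of these shifts was not tested.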

Other observations

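Marker lists of immature neurons and of oligodendrocyte precursors were also examined. Of 9 genes measured in a list for proliferating and immature neurons, 4 were higher and 5 lower in Tg(Dyrk1a) mice. Of these, 0 passed limma, FCROS or an unadjusted p of 0.05. The proliferation genes Mki67, Top2a and Cdk1 are not in that list. Dcx, the doublecortin gene of immature neurons, had a wild-type mean of 7.44 ± 0.08 (SD, n = 5) and a Tg(Dyrk1a) mean of 7.46 ± 0.19, a log2 difference of 0.014 ± 0.077. Of 8 oligodendrocyte precursor genes 4 were higher and 4 lower, with a median of -0.018 and 0 past the same thresholds.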
